A study of Rattus norvegicus with 3 samples.

Results

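The loci of Cep152, on rat chromosome 3, and Cep350, on rat chromosome 13, each contained a region with more captured methylated DNA in livers of newborn rats whose dams were fed a low protein diet than in control livers. The loci were taken as windows of 1 Mb around these called regions, from 112400000 to 113400000 on chromosome 3 and from 70500000 to 71500000 on chromosome 13 (rat assembly rn4). Of the 95306 regions in the 3 deposited lists, 101 lay in the windows, with 58 at the Cep152 locus and 43 at the Cep350 locus. The called regions, and with them the windows, were chosen from results of these lists. They are among the MLP vs. C regions that the study selected by false discovery rate. That selection did not follow the score alone, since a region at the Cep350 locus with a score of 333.27, above that of the called region, was not in it. The scores of the members are therefore a description and were not tested.

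Methylated DNA fragments had been captured with a methyl-CpG binding domain (MBD) protein from livers of male Wistar rats at 1 day of age and sequenced as 1 pooled library per group. Groups are called by the maternal diet, which was low protein (MLP), low protein with added folate (MLP-F) or normal (C), and these pups came from 1 litter in each group. The labels give 6 animals in each pool, while the study's text gives a larger number. Each list holds the regions that were higher in the first library of a pair, with 35998 regions in MLP vs. C, 33730 in MLP vs. MLP-F and 25578 in MLP-F vs. C. Regions are given with their positions and with a score, equal to −log10 of the MACS p multiplied by 10; MACS is a program that compares the reads of 1 library with those of another. The MLP library was the deepest and the C library the shallowest, and depth affects the score, so scores are compared mainly within a list. With 1 library per group there is no replicate error for any value, and diet cannot be told apart from litter or library. Regions with less signal in the first library than in the second were not analysed here.

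The centrosome is the main microtubule-organising centre of animal cells and is built around a pair of centrioles, which are copied once in each cell cycle. Cep152 is a scaffold protein of the centriole that, together with Cep192, recruits Plk4, the kinase that starts centriole duplication, and its loss in humans causes microcephaly or Seckel syndrome. Cep350 is a large protein of the centrosome that binds microtubules and, in human cells, helps to anchor them and to keep centrioles stable. CpG methylation, to which the MBD protein binds, is dense in many repeats and in gene bodies, and its effect there differs from that at promoters. The study's annotated tables place both called regions in introns of these genes. They name a tandem repeat (trf) for the Cep152 region, and for the Cep350 region a (TG)n repeat, low-complexity sequence, tandem repeats and the short interspersed repeats PB1D10 and B3A. Because the tables give the nearest repeats, these may lie outside the regions.

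The called region of Cep152 (chromosome 3, 112896451 to 112897694, 1244 bp) had a score of 1988.59 in MLP vs. C and 1613.10 in MLP vs. MLP-F. It stood at place 20 of 35998 in the first of these lists and at place 32 of 33730 in the second. On chromosome 3 it was the third highest of 2248 regions and the second highest of 2212. The MLP-F vs. C list does not hold it, and the nearest region of that list (112887539 to 112888361, score 97.12) lay 8089 bp away. Absence from a list means that the region did not pass the p cut-off and does not show that the MLP-F and C libraries were equal. Scores of this size were rare, with 67 MLP vs. C regions (0.186% of the list) at 1000 or more. Of these 67 regions, 63 were also listed in MLP vs. MLP-F and 26 in MLP-F vs. C.

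The called region of Cep350 (chromosome 13, 70993559 to 70993874, 316 bp) had a score of 130.41 in MLP vs. C, at place 6384 of the list. It was not in the MLP vs. MLP-F list, whose nearest region (70949337 to 70949720, score 88.36) lay 43838 bp away. In MLP-F vs. C, a longer region (70993526 to 70993927, 402 bp, score 128.48, place 2324 of 25578) covered all of its 316 bp. The called regions therefore differed in the lists that held them. The Cep152 region was listed as higher in MLP than in either other library. The Cep350 region was listed as higher in MLP and in MLP-F than in C. These lists rest on a p cut-off. The study, which selected regions further by false discovery rate, reported no differential methylation between MLP-F and C. Among the 2168 MLP vs. C regions with scores from 120 to 140, as at Cep350, 578 (26.7%) were also listed in MLP-F vs. C alone, and 1092 (50.4%) in MLP vs. MLP-F alone.

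**Figure D1:**
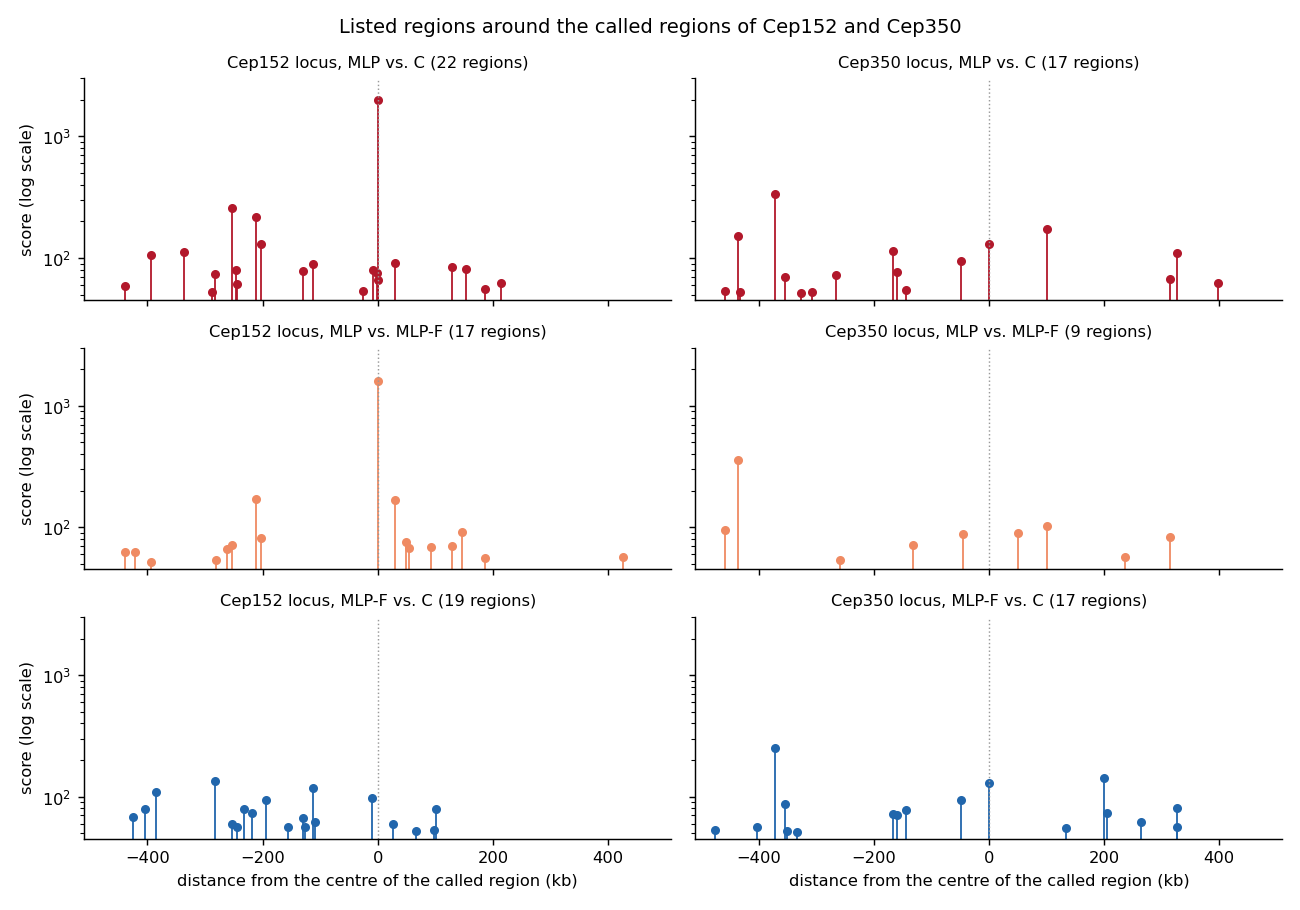
Score (log scale) of each listed region against its distance in kb from the centre of the called region (dotted line), for the Cep152 locus (left) and the Cep350 locus (right) in the 3 lists. The tall point at 0 on the left reaches 1988.59 in MLP vs. C and 1613.10 in MLP vs. MLP-F and has no counterpart in MLP-F vs. C, while the point at 0 on the right is near 130 in MLP vs. C and MLP-F vs. C and absent from MLP vs. MLP-F.

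The called regions also differed in length and in rank within their own windows. The Cep152 region was longer than 93.3% of the MLP vs. C regions, and the Cep350 region was longer than 1.49% of them. The median length over the list was 673.5 bp, and over the 67 regions with scores of 1000 or more it was 1244 bp. At the Cep152 locus the next highest MLP vs. C score was 259.42, far below that of the called region. At the Cep350 locus 3 regions scored higher in MLP vs. C than the called region, with scores of 333.27, 171.98 and 150.54.

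**Figure D2:**
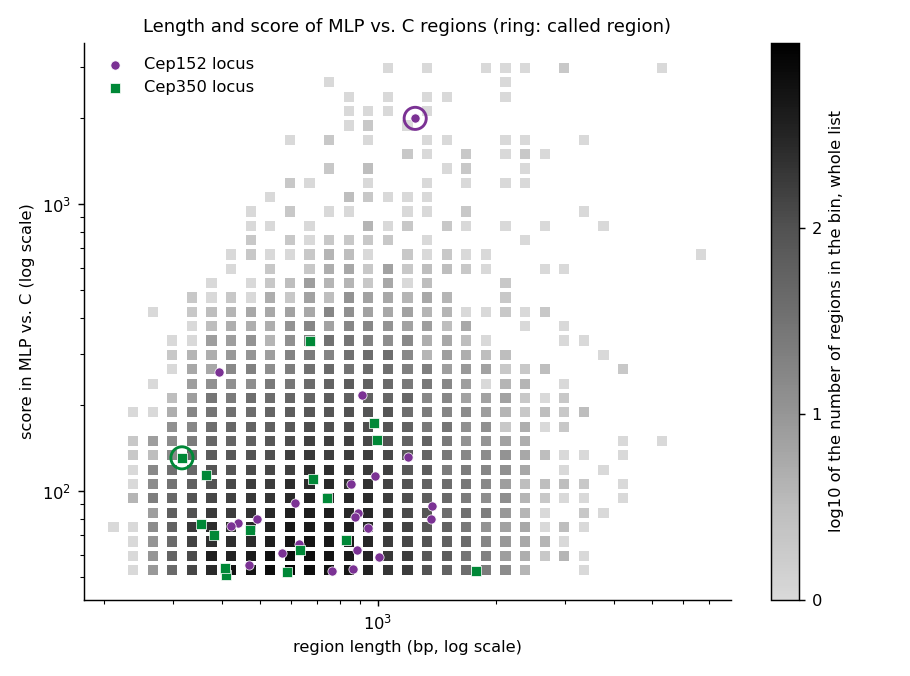
Length (bp, log scale) against score in MLP vs. C (log scale) for the members at the Cep152 locus (purple circles) and the Cep350 locus (green squares), over the whole list of 35998 regions binned in grey. Rings mark the called regions, at 1244 bp and 1988.59 for Cep152 and at 316 bp and 130.41 for Cep350.

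At the Cep152 locus, the 22 MLP vs. C regions had a median score of 79.62 (lowest 52.48), against 77.39 over the whole list, and 6 of them scored 100 or more, against 31.1% of the list. The 17 MLP vs. MLP-F regions had a median of 68.67, against 81.77, with 3 at 100 or more (list 36.8%). The 19 MLP-F vs. C regions ranged between 52.07 and 133.51 with a median of 67.77, against 69.37, and 3 scored 100 or more (list 19.1%). The median scores of the locus were thus close to those of the lists or lower. Listed regions covered 1.82% of the window in MLP vs. C, 1.24% in MLP vs. MLP-F and 1.42% in MLP-F vs. C.

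At the Cep350 locus, the 17 MLP vs. C regions ranged between 51.02 and 333.27 with a median score of 72.92, and 6 scored 100 or more (list 31.1%). The 9 MLP vs. MLP-F regions ranged between 53.82 and 356.05 with a median of 88.36, and 2 scored 100 or more (list 36.8%). The 17 MLP-F vs. C regions ranged between 51.05 and 251.56 with a median of 72.04, and 3 scored 100 or more (list 19.1%). These medians differed from those of the lists by less than 10 score units in each comparison. The covered share of the window was smaller than at Cep152, with 1.10% in MLP vs. C, 0.553% in MLP vs. MLP-F and 0.971% in MLP-F vs. C.

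The MLP library enters both MLP lists and the C library enters both lists against C, so presence of a region in a second list is not independent of the first. Of the 22 MLP vs. C regions at Cep152, 9 (40.9%, 95% Wilson interval 23.3 to 61.3%) overlapped an MLP vs. MLP-F region, against 39.4% of the whole list. An MLP-F vs. C region overlapped 6 of the 22 (27.3%, 13.2 to 48.2%), against 22.6% of the list. Of the 17 MLP vs. C regions at Cep350, 4 (23.5%, 9.56 to 47.3%) were in the MLP vs. MLP-F list and 8 (47.1%, 26.2 to 69.0%) in the MLP-F vs. C list. In its window the Cep350 locus thus had more members shared with MLP-F vs. C than with MLP vs. MLP-F, but this order depended on the width of the window. With 1 Mb on each side of the called region it was reversed, with 8 of 27 regions (29.6%) in MLP-F vs. C and 10 of 27 (37.0%) in MLP vs. MLP-F, and within 250 kb on each side the counts were 5 of 6 (83.3%) and 1 of 6 (16.7%). Among regions with scores of 100 or more in both lists they were equal, at 2 of 6 (33.3%). The intervals cover counting error only, treat neighbouring regions as independent and are not a test. They do not decide whether a locus differs from the other or from the whole list. At Cep350 the 8 regions also in MLP-F vs. C include the called region, around which the window was drawn. That window also held more MLP-F vs. C regions than 84.9% of windows of the genome, and more MLP vs. MLP-F regions than 41.3%. At Cep152 the share in MLP-F vs. C was below that in MLP vs. MLP-F in both of these windows (7 and 12 of 31, and 4 and 6 of 16) and at scores of 100 or more (0 and 2 of 6).

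Both other lists held 1 of the 22 regions at Cep152 and 0 of the 17 at Cep350 (list 1.11%), and neither held 8 of 22 and 5 of 17 (list 39.1%). Counted from the MLP vs. MLP-F list, 9 of 17 regions at Cep152 and 4 of 9 at Cep350 were also in MLP vs. C (list 42.1%). Counted from the MLP-F vs. C list, 6 of 19 and 8 of 17 were (list 31.8%). Every region shared by the 2 MLP lists, 9 at Cep152 and 4 at Cep350, had the same start and end in both, as did all 14194 such regions of the whole list. None of the regions shared by the 2 lists against C did. Equal boundaries are therefore a feature of lists with the same first library and not of these loci.

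**Figure D3:**
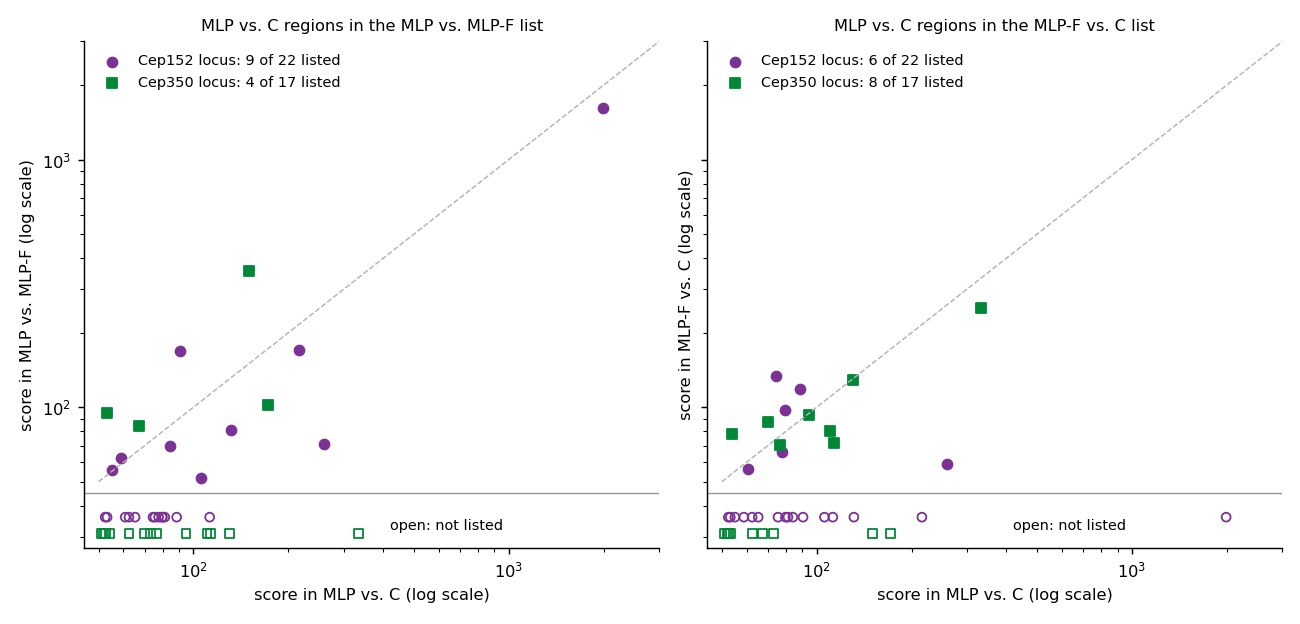
Score in MLP vs. C against score in MLP vs. MLP-F (left) and in MLP-F vs. C (right), both on log scales, for the MLP vs. C regions at the Cep152 locus (purple circles) and the Cep350 locus (green squares); open symbols under the line are regions that the second list does not hold, and the dashed line marks equal scores. In MLP vs. MLP-F 9 of 22 and 4 of 17 regions are listed, and in MLP-F vs. C 6 of 22 and 8 of 17.

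Besides the called region, 5 MLP vs. C regions at the Cep152 locus scored 100 or more. The highest (112643247 to 112643639, score 259.42) was the only position of the locus in all 3 lists, with 71.31 in MLP vs. MLP-F and 59.02 in MLP-F vs. C. The region from 112684419 to 112685328 scored 215.72 in MLP vs. C and 170.54 in MLP vs. MLP-F. The region from 112694406 to 112695594, which the study's table places in an intron of Fbn1, the gene of the extracellular matrix protein fibrillin 1, scored 131.26 and 80.98 in these lists. The Fbn1 region, the nearest of these 3 to the called region of Cep152, lay 200856 bp below it. The other 2 scored 112.56, in MLP vs. C alone (112560737 to 112561716), and 105.88, with 51.96 in MLP vs. MLP-F (112503392 to 112504244).

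A region 28907 bp above the called region of Cep152, toward higher coordinates (112926602 to 112927215) had a higher score in MLP vs. MLP-F, 168.47, than in MLP vs. C, 90.55. In MLP-F vs. C the highest scores of the locus were 133.51, at a position also listed in MLP vs. C with 74.43, then 118.02 (88.48 in MLP vs. C), and 110.16 (112511887 to 112513536), in that list alone. None of these 3 positions was in the MLP vs. MLP-F list.

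At the Cep350 locus the highest MLP vs. C score belonged to a region 371362 bp below the called region (70621525 to 70622196, score 333.27). The region that overlapped it in MLP-F vs. C scored 251.56, the highest of that list in the window, and MLP vs. MLP-F did not hold it. Its lists were the same as those of the called region. The opposite was seen from 70557394 to 70558388, where the score was 356.05 in MLP vs. MLP-F and 150.54 in MLP vs. C, with no MLP-F vs. C region. Likewise the region from 71093593 to 71094568 scored 171.98 in MLP vs. C and 102.50 in MLP vs. MLP-F. Regions in MLP vs. C and MLP-F vs. C also included those with MLP vs. C scores of 113.22 (72.04 in MLP-F vs. C) and 110.37 (80.00). The position from 71194227 to 71194807, with a score of 141.19, was in MLP-F vs. C alone.

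When overlapping regions of the lists were merged, the Cep152 locus held 43 positions and the Cep350 locus 31. MLP-F vs. C alone was the most frequent pattern at both, with 13 and 9 positions. At Cep152, 8 positions were in MLP vs. C alone, 8 in MLP vs. MLP-F alone, 8 in both MLP lists, 5 in MLP vs. C and MLP-F vs. C and 1 in all 3. At Cep350 the same patterns had 5, 5, 4, 8 and 0 positions. Of the MLP-F vs. C regions, 13 of 19 (68.4%) at Cep152 and 9 of 17 (52.9%) at Cep350 were in neither other list, against 68.1% of the whole list. For MLP vs. MLP-F these were 8 of 17 (47.1%) and 5 of 9 (55.6%), against 57.8%. The order of the patterns thus also depends on how many regions of each list a window holds. In the whole lists, counted as regions rather than merged positions, 19508 were in MLP vs. MLP-F alone. There were 17425 regions in MLP-F vs. C alone and 14059 in MLP vs. C alone. Of the MLP vs. C regions, 13795 (38.3%) were also in MLP vs. MLP-F only. A further 7745 (21.5%) were also in MLP-F vs. C only, and 399 were in all 3 lists.

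At a width of 1 Mb, both windows held more MLP vs. C and MLP-F vs. C regions than most windows of the genome. Of 2710 windows of 1 Mb tiled along the numbered chromosomes and X, 82.6% held fewer MLP vs. C regions than the 22 at Cep152, and 70.4% fewer than the 17 at Cep350, with a median of 11 and a mean of 12.9. At both loci the number per Mb depended on the width. Cep350 had 12 MLP vs. C regions per Mb with 250 kb on each side and 13.5 with 1 Mb, near that mean. Cep152 had 32 and 15.5. For MLP-F vs. C, 89.3% of windows held fewer than the 19 at Cep152 and 84.9% fewer than the 17 at Cep350, with a median of 8. For MLP vs. MLP-F the loci differed more, since 78.1% of windows held fewer than the 17 at Cep152 and 41.3% fewer than the 9 at Cep350, with a median of 10. With 250 kb and 1 Mb on each side, Cep152 had 28 and 13 MLP-F vs. C regions per Mb, and Cep350 16 and 13.5. For MLP vs. MLP-F these were 20 and 11 at Cep152, the latter below the mean of 12.1 per window, and 10 and 10 at Cep350. Counting only regions with scores of 100 or more, 73.9% of windows held fewer MLP vs. C regions than either locus, and for MLP vs. MLP-F 30.9% held fewer than the Cep152 locus and 15.4% fewer than the Cep350 locus. These places describe windows that were chosen because they held a called region. At the edges of the windows, the first MLP vs. C regions outside were at 112378971 (score 54.52) and 113410305 (83.92) on chromosome 3, and at 70489323 (64.57) and 71501266 (108.77) on chromosome 13. The first and last regions inside scored 58.77 and 62.43 at Cep152, and 53.37 and 62.47 at Cep350.

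**Figure D4:**
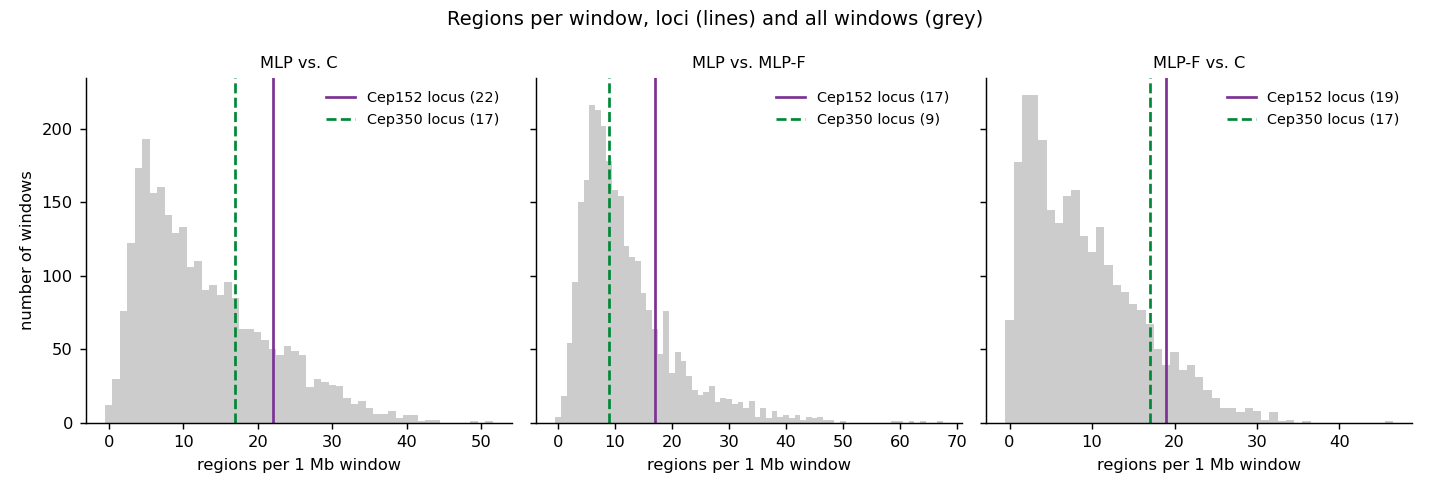
Number of listed regions per 1 Mb window in the 3 lists (left to right, MLP vs. C, then MLP vs. MLP-F, then MLP-F vs. C), with the Cep152 locus (purple line) and the Cep350 locus (green dashed line) over the distribution of all 2710 windows (grey bars). The lines stand at 22 and 17, at 17 and 9, and at 19 and 17 regions.

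In the RefSeq gene order of the later rat assembly GRCr8, Cep152 lies between Fbn1 and Shc4, a signalling adaptor, and Dut, the dUTPase that keeps uracil out of DNA, lies on the far side of Fbn1. Cep350 lies between Qsox1, a sulfhydryl oxidase, and Tor1aip1, a protein of the inner nuclear membrane. The study's annotated table of MLP vs. C includes 3 of the 39 MLP vs. C regions in the windows, each with a gene. Over the whole list it includes 3.29%, with or without a gene name. Besides that of Fbn1, the 3 regions were the called regions, around which the windows were drawn. That the called regions were included was fixed by this choice, so the shares are not comparable. The other members were not assigned to genes.

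Of 63 centrosome and centriole genes, 5 were named for an MLP vs. C region in the study's table, among them Cep152 and Cep350, around which the loci were chosen. The list of genes was drawn up with results of these data known, so its shares are only a description. Without Cep152 and Cep350, 3 of 61 were named, against 2.45% of the protein-coding gene symbols of RefSeq (568 of 23154). That share counts only names of the study that match a RefSeq symbol, and all 63 listed genes are in RefSeq. Names that have since changed are missed, so the share may be too low. The 3 named genes were Cep135, a component of the centriole cartwheel, Odf2, a protein of the appendages of the mother centriole, and Crocc (rootletin), which links centrioles. None of Plk4, Cep192, Cep63, Stil, Sass6 or Cenpj, the other core genes of centriole duplication in the list, was named there, which does not show that they had no listed region. The Cep135 region (chromosome 14, 33790698 to 33791616, labelled downstream) scored 126.83 in MLP vs. C and 169.93 in MLP-F vs. C, and so was in the same lists as that of Cep350. The Odf2 region (chromosome 3, 8909854 to 8910619, intronic) scored 130.51 in MLP vs. C and 256.92 in MLP vs. MLP-F. That of Crocc (chromosome 5, 159923909 to 159924663, labelled upstream) scored 129.25 and 50.46 in these lists. Odf2 and Crocc were thus in the same lists as Cep152, at much lower scores. Both patterns were common at such scores. Of all MLP vs. C regions scoring from 120 to 140, 50.4% were also in MLP vs. MLP-F alone and 26.7% in MLP-F vs. C alone. Of the 63 genes, only Cep152 was named in the table of MLP vs. MLP-F. The tables name genes only for regions that the study selected, and the list of genes was not tested.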

How the data were processed

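The authors mapped the pairs of reads with Bowtie to rn4 and used MACS to call regions, 1 pooled library against another (p cut-off of 1e-05). Per the submitters' processing notes CASAVA was also used; their versions are not stated in the sources used here. Positions and a score for each region are what the deposited lists give; they hold no read counts, so library depth was compared only in words, from the study's table of reads. Starts were converted to 1-based positions. Members were regions overlapping the windows, an overlap meant at least 1 bp, and tied scores shared the last place. Gene names, intron labels and repeats were taken from the study's annotated tables by chromosome, start and end, and no other column of those tables was used. Named genes were Cep152 and Cep350, other genes those tables name in the windows, and a list of 63 centrosome genes. Single regions were described where they were called regions, scored at least 100 or lay in all 3 lists; any others were picked with their values known. The members and lists were chosen with earlier results of these data known. No test was made, since each diet is 1 library. Alternatives were a score of at least 100, windows of 250 kb or 1 Mb on each side, overlap of 50% of both regions, regions within 1 kb, unplaced sequence and an offset of 500 kb. No rn4 sequence was used. Python 3.11.15, numpy 2.4.6, pandas 2.3.3, SciPy 1.17.1 and matplotlib 3.10.9 were used, and the overlap routine was checked on shifted copies of listed regions.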

Additional observations from a re-analysis of the deposited data

How the results depend on the processing

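Of 86 recalculated values, 64 stayed close to those reported (counts and scores within 1.5 times, shares within their interval, places of windows within 10 points). With a score of at least 100, regions per Mb at Cep152 were 6 in MLP vs. C, 3 in MLP vs. MLP-F and 3 in MLP-F vs. C, and at Cep350 6, 2 and 3, which follows from the smaller lists. Under that minimum in every list, 0 of 6 MLP vs. C regions at Cep152 (0%) were also in MLP-F vs. C. For Cep350 that share was 83.3% (5 of 6) with 250 kb on each side and 29.6% (8 of 27) with 1 Mb, where it was below the 37.0% (10 of 27) in MLP vs. MLP-F, so the order of the lists was reversed. With 1 Mb on each side of Cep152 there were 11 MLP vs. MLP-F regions per Mb; the cause was not tested. With a score of at least 100, 73.5% of windows held fewer MLP-F vs. C regions than either locus. The called regions kept their lists with a reciprocal overlap of 50% or a distance of 1 kb at both loci, where none of the shares moved outside its interval. Depth limits what absence from a list can show.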

Other observations

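The called region of Cep152 was flanked in MLP vs. C by a region 329 bp below it (112895700 to 112896121, score 75.44) and another 365 bp above it (112898060 to 112898689, score 65.29), and neither was in another list. This measure was chosen after the values had been seen. Of the 67 MLP vs. C regions with scores of 1000 or more, the Cep152 region was the only 1 with neighbours within 1 kb on both sides, and 11 had one on at least 1 side (16.4%). Of the 35931 regions with lower scores, 32 (0.0891%) had neighbours on both sides and 1996 (5.56%) on at least 1.

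At the upper end of the Cep152 window, no MLP-F vs. C region lay in the last 400706 bp of the window and no MLP vs. C region in the last 287740 bp, while MLP vs. MLP-F had 1 region there (113322360 to 113323025, score 57.08). The last 400 kb of the window held 4 MLP vs. C, 4 MLP vs. MLP-F and 0 MLP-F vs. C regions at Cep152, and 3, 2 and 6 at Cep350. This stretch, too, was chosen after the values had been seen, and gaps of its length were not counted over the genome. The 1 Mb windows of the genome had a median of 8 MLP-F vs. C regions and a lower quartile of 3.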
